A study of Mus musculus with 18 samples.

Results

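Adipokines are proteins that fat cells release into the circulation. The 9 genes described here were taken by symbol from a table of 54347 genes. Adipoq, Cfd, Nampt, Rarres2, Retn, Lep and Rbp4 encode adiponectin, adipsin, visfatin, chemerin, resistin, leptin and retinol binding protein 4. Adipor1 and Adipor2 encode the adiponectin receptors. Of the 9 genes, 7 had enough counts to be among the 14949 genes tested, whereas Lep and Rbp4 did not.

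Adiponectin is made almost only by adipocytes, circulates as multimers and acts through its receptors on lipid and glucose metabolism, whereas leptin reports the size of the fat stores to the brain. Brown adipocytes burn lipid for heat when noradrenaline reaches their β-adrenergic receptors and raises cyclic AMP. Isoproterenol is a synthetic agonist of these receptors.

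The 18 libraries were made from polyadenylated RNA of wt1-SAM brown adipocytes, which are differentiated cells of 1 immortalised mouse preadipocyte line. The line carries the CRISPR activation system SAM in every group. All cells were differentiated with rosiglitazone, T3, dexamethasone, insulin, indomethacine and IBMX, and rosiglitazone stayed in the medium afterwards. On day 4 they were reverse transfected with 1.4 µl of a 10 µM locked nucleic acid oligonucleotide (LNA) per well of 500000 cells. The LNAs were the non-targeting ctrlA and LNA1 and LNA2, both directed against the long non-coding RNA Gm15551. Each LNA was combined with no stimulation or with 1 µM isoproterenol over the last 24 h before harvest on day 7. This gave the 6 groups unstimulated ctrlA, LNA1 and LNA2 and stimulated ctrlA, LNA1 and LNA2, with 3 libraries each, numbered 2, 3 and 4. Whether the numbers stand for separate cultures is not stated, so p-values measure only the spread between these libraries. In RNA of whole wells, fewer cells that express a gene and less RNA per cell cannot be told apart.

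The LNAs define the groups, so their sequences were compared with the annotated transcripts of the 9 genes. They are printed 5′ to 3′, and capitals mark the longest run that is complementary to a transcript of any of these genes.
ctrlA: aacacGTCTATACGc
LNA1: gatgACTGAGATTaga
LNA2: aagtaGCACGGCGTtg
The run was 9 bases long in each, with Lep for ctrlA, Adipor2 for LNA1 and Adipor1 for LNA2. The other combinations of LNA and gene gave runs of 5 to 8 bases. A run of at least 9 bases was present in 0.9% of 55450 annotated genes for ctrlA, in 6.61% for LNA1 and in 1.86% for LNA2. LNA1 and LNA2 were complementary to Gm15551 over all of their 16 bases, and ctrlA over 4 bases at most. Gm15551 itself had 42 counts in the 6 ctrlA libraries, 24 in the 6 LNA1 libraries and 27 in the 6 LNA2 libraries, with 1 to 14 counts per library.

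Library totals ranged from 9167560 to 19723021 counts. A floor of detection of 3 counts per library corresponded to 0.17 to 0.306 CPM, which are counts scaled to a common library total after TMM normalisation. The replicate 2 libraries stood apart, with 2.88 to 14.3% of their counts in the ribosomal RNA gene CT010467.1 against 0.285 to 1.04% in replicates 3 and 4. Their share of mitochondrial genes was 0.575 to 0.984% against 0.0892 to 0.373%. Libraries of the same number deviated together in all 6 groups, most clearly for replicate 2. Each call is therefore also given from a model with the replicate number as a block where that changes it. The 8 adipocyte markers summed to 19650 to 30920 CPM in the 9 unstimulated libraries and to 16230 to 23770 CPM in the 9 stimulated ones, and all were over the floor. Fabp4 made up most of this difference, with a mean of 15040 CPM in unstimulated and 10830 CPM in stimulated ctrlA cells. In ctrlA cells Cidec, Cd36, Pnpla2, Lipe and Plin1 were also lower with stimulation. Their means went from 1879, 1889, 1187, 1011 and 733 CPM to 1394, 1557, 922, 749 and 618 CPM, in this order. Lpl, with 4087 and 4390 CPM, and Pparg, with 160.5 and 165 CPM, were not lower in ctrlA cells. Lpl went from 4156 to 4236 CPM with LNA1 and from 4007 to 3663 CPM with LNA2. Pparg went from 159.7 to 156.5 CPM with LNA1 and from 143 to 141.6 CPM with LNA2. The 8 brown adipocyte markers summed to 256 to 430.1 CPM and to 355.5 to 549 CPM. Most of this sum came from Elovl3, with a mean of 297 CPM in unstimulated and 392 CPM in stimulated ctrlA cells, whereas Dio2 had 0.0378 and 0 CPM, Cox7a1 1.97 and 2.67 CPM and Cox8b 1.05 and 1.29 CPM. Ucp1 was low, with 0.62 to 1.57 CPM in unstimulated and 9.38 to 16.5 CPM in stimulated cells. The sum of 5 preadipocyte markers was 14.9 to 39.3 CPM without and 25.3 to 74.8 CPM with isoproterenol, and Thy1 was at or under the floor in all libraries. The difference with stimulation lay mostly in Ly6a, with a mean of 9.44 CPM in unstimulated and 30.8 CPM in stimulated ctrlA cells, whereas Pdgfra had 7.74 and 7.05 CPM. In unstimulated LNA1 cells Pdgfra (14.1 CPM) was above Ly6a (10.2 CPM). The sum of 5 macrophage and leukocyte markers was 8.21 to 28.5 CPM and 12.1 to 44.5 CPM, with Ptprc and Adgre1 at or under the floor throughout and most of the sum from Cd68. Endothelial, muscle and hepatocyte markers summed to at most 4.79 CPM. The part of these shifts in the results was not tested.

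The 7 measured genes covered a wide range of levels. Per kilobase of annotated exon, which allows genes to be compared, the median over 18 libraries was 356.5 CPM for Adipoq (range 189 to 558) and 169 CPM for Cfd (range 79.2 to 309). Adipor2 followed with a median of 114 CPM per kilobase (range 103 to 125.5) and Nampt with 71.0 (range 32.8 to 122). The lowest medians were those of Retn with 35.4 (range 21.4 to 104), Adipor1 with 33.0 (range 28.1 to 35.6) and Rarres2 with 26.9 CPM per kilobase (range 14.5 to 52.8). Neighbours in this order overlapped in their ranges. Adiponectin and adipsin were thus the most abundant adipokine transcripts by median, whereas Rbp4 (median 0.187 CPM per kilobase) and Lep (median 0) were at the limit of detection.

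**Figure D1:**
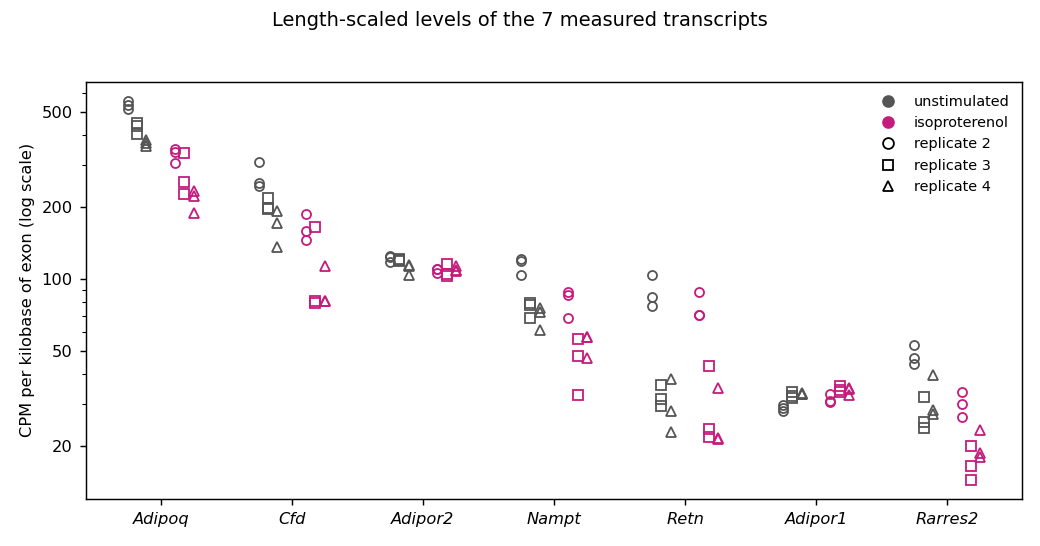
Level of the 7 measured transcripts in each library, as CPM per kilobase of exon on a log scale, by stimulation (colour) and replicate number (symbol). Adipoq lay highest with 189 to 558, and Rarres2 reached down to 14.5 CPM per kilobase.

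The effect of β-adrenergic stimulation was examined by comparing the 9 stimulated with the 9 unstimulated libraries. Adipoq and Cfd fell with isoproterenol. They were the members called among 7, against 1.18% of all genes tested that were called lower (edgeR quasi-likelihood test, Benjamini-Hochberg adjusted p below 0.05 and absolute log2 fold change above 0.5). Nampt and Rarres2 were lower in each of the 9 pairs of libraries with the same LNA and replicate number, but did not pass the limit. With the replicate block these 4 genes were called lower, against 3.13% of all genes. The median log2 fold change of the 7 members was -0.54, and that of all genes was -0.00.

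Adipoq (ENSMUSG00000022878.5, chr16:23146536-23158028, plus strand of GRCm38) encodes adiponectin. Unstimulated cells had 739, 603 and 499 CPM with ctrlA, 709.7, 560.5 and 527 CPM with LNA1 and 770.1, 620 and 511 CPM with LNA2, in the order of replicates 2, 3 and 4 that is kept throughout. Stimulated cells had 486, 351 and 308 CPM with ctrlA, 424, 313 and 261.5 CPM with LNA1 and 472, 466 and 324 CPM with LNA2. Within each LNA the highest stimulated library lay under the lowest unstimulated library, and replicate 2 held the highest value of every group. The mean went from 615.5 ± 102 to 378 ± 84.1 CPM (SD, 9 libraries in each arm). This was a change of -38.8% and of -0.71 on the log2 scale (SE 0.14, adjusted p 0.0073). With the replicate block it was -0.71 (SE 0.05, adjusted p 1.17e-08). In the pairs the log2 ratio ranged from -1.01 to -0.41.

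Cfd (ENSMUSG00000061780.6, chr10:79890853-79892655, plus strand) encodes adipsin, the serine protease that cleaves factor B in the alternative complement pathway. Its levels in unstimulated cells were 226, 183 and 125 CPM with ctrlA, 232, 182 and 158.5 CPM with LNA1 and 284.5, 202 and 177 CPM with LNA2. After stimulation they were 147, 74.4 and 75.0 CPM with ctrlA, 134, 73.1 and 74.4 CPM with LNA1 and 173, 152.5 and 105 CPM with LNA2. The stimulated and unstimulated libraries were separate for LNA1 and LNA2, and overlapped for ctrlA through replicate 2. The mean went from 197 ± 46.3 to 112 ± 40.0 CPM, a change of -43.9% and of -0.83 on the log2 scale (SE 0.19, adjusted p 0.0194). The block gave -0.85 (SE 0.07, adjusted p 3.02e-07). The 9 paired log2 ratios spread from -1.31 to -0.40, the widest range among the genes that were lower in all pairs.

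Rarres2 (ENSMUSG00000009281.6, chr6:48569696-48572789, minus strand) encodes chemerin, a chemoattractant and ligand of the receptor CMKLR1. Unstimulated levels were 124, 66.9 and 72.7 CPM with ctrlA, 140.2, 85.7 and 106 CPM with LNA1 and 118, 63.6 and 75.1 CPM with LNA2. Stimulated levels were 79.96, 43.9 and 47.9 CPM with ctrlA, 89.4, 53.3 and 61.95 CPM with LNA1 and 70.2, 38.4 and 49.7 CPM with LNA2. Replicate 2 was the highest in every group, so that stimulated replicate 2 overlapped the unstimulated replicates 3 and 4, yet the paired ratios lay close together, between -0.77 and -0.60. The mean went from 94.6 ± 28.0 to 59.4 ± 17.3 CPM, with a log2 change of -0.67 (SE 0.19, adjusted p 0.0671) without the block and -0.67 (SE 0.04, adjusted p 8.88e-09) with it. DESeq2 (adjusted p 0.0204) and a fit without the low-count filter (adjusted p 0.0357) also called it, against 1.61% and 0.457% of the genes in each fit called lower. So did fits that left out stimulated replicate 2 of ctrlA, LNA1 or LNA2, with adjusted p of 0.0319, 0.0489 and 0.0455, against 1.06%, 1.08% and 1.13% of all genes called lower. Over all 25 alternatives the adjusted p ran from 8.88e-09 to 0.506. The exons of Rarres2 overlap those of Lrrc61 on the opposite strand over 892 of 2656 bases. Lrrc61 had 62 to 131 counts per library against 470 to 2189 for Rarres2, and whether strand was used in counting is not stated.

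Nampt (ENSMUSG00000020572.8, chr12:32819545-32853349, plus strand) encodes the rate-limiting enzyme of NAD salvage from nicotinamide, which is also found outside cells. Without stimulation its level was 601, 400 and 383 CPM with ctrlA, 615, 393 and 370 CPM with LNA1 and 528, 348 and 311 CPM with LNA2. With isoproterenol it was 449, 284 and 288.5 CPM with ctrlA, 434, 242 and 289.8 CPM with LNA1 and 347.5, 166 and 237 CPM with LNA2. As for Rarres2, replicate 2 was highest in every group and the ranges overlapped within each LNA. The mean went from 439 ± 113 to 304 ± 92.1 CPM, with a log2 change of -0.54 (SE 0.19, adjusted p 0.145). With the block it was -0.55 (SE 0.06, adjusted p 2.98e-06), and over all alternatives the adjusted p ran up to 0.801. The paired ratios ranged from -1.07 to -0.35.

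**Figure D2:**
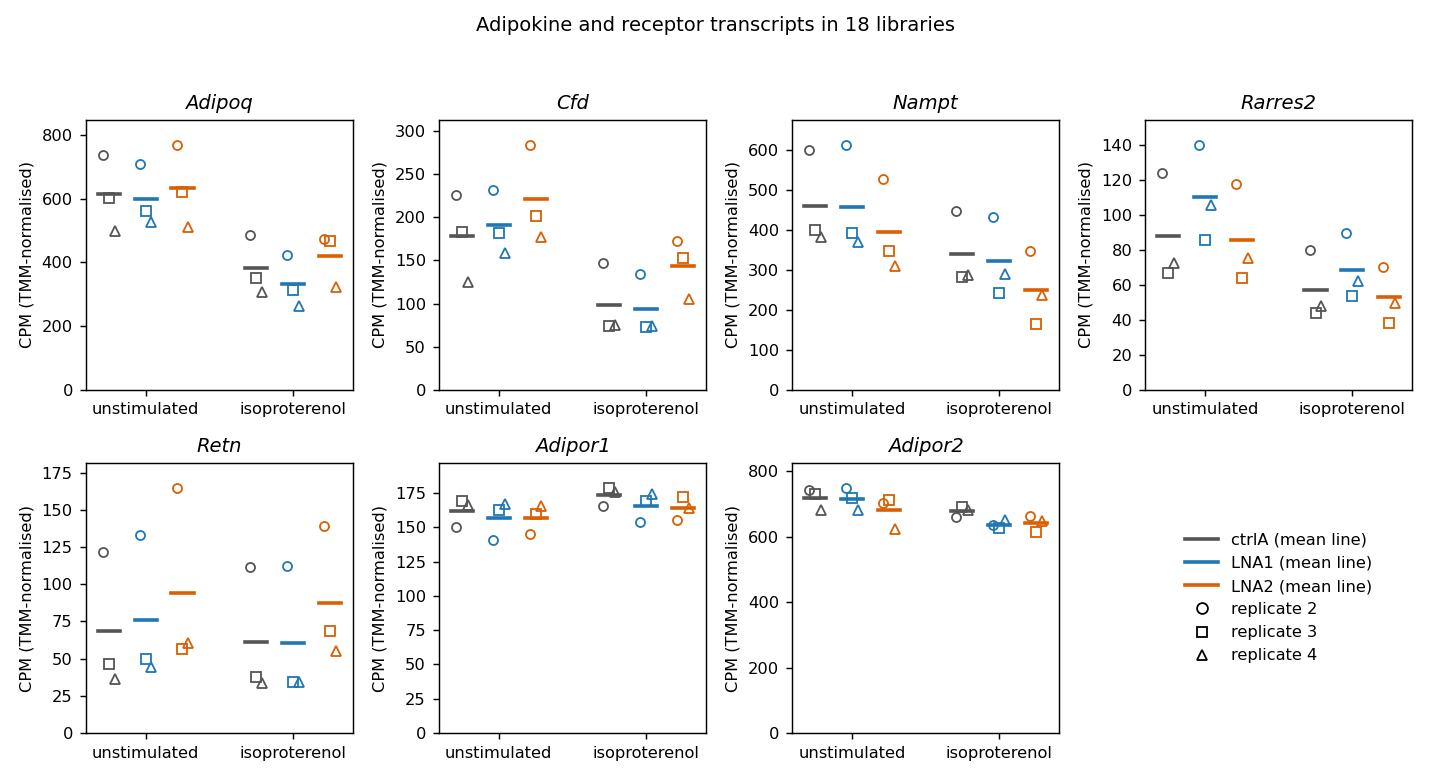
TMM-normalised CPM of the 7 tested genes in each of the 18 libraries, with the mean of each group of 3 as a line, by LNA (colour) and replicate number (symbol). Stimulated Adipoq libraries lay at 261.5 to 486 CPM and unstimulated ones at 499 to 770.1 CPM, and replicate 2 of Retn stood apart from replicates 3 and 4 in every group.

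Retn (ENSMUSG00000012705.16, chr8:3655770-3660110, plus strand) encodes resistin, which adipocytes secrete in mice. Unstimulated libraries had 122, 46.6 and 36.3 CPM with ctrlA, 133, 49.6 and 44.5 CPM with LNA1 and 165, 56.7 and 60.5 CPM with LNA2. Stimulated libraries had 111, 37.4 and 33.8 CPM with ctrlA, 112, 34.5 and 34.3 CPM with LNA1 and 139, 68.2 and 55.2 CPM with LNA2. The libraries split by replicate number, since replicate 2 had 111 to 165 CPM and the other 12 libraries 33.8 to 68.2 CPM. The isoproterenol comparison gave 79.3 ± 47.3 against 69.5 ± 40.9 CPM and a log2 change of -0.20 (SE 0.39, adjusted p 0.933), with 8 of 9 pairs lower. Its sign turned when unstimulated replicate 2 of ctrlA, LNA1 or LNA2 was left out (up to 0.056). The block gave -0.20 (SE 0.06, adjusted p 0.0229), under the fold limit.

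The receptor transcripts were not called. Adipor1 (ENSMUSG00000026457.14, chr1:134415378-134433351, plus strand), the receptor linked to AMP-activated kinase, had 141 to 169 CPM in unstimulated and 154 to 179 CPM in stimulated libraries. Its mean was 158.5 ± 10.4 against 168 ± 8.78 CPM, with a log2 change of 0.08 (SE 0.07, adjusted p 0.701) and 8 of 9 pairs higher. Adipor2 (ENSMUSG00000030168.13, chr6:119353150-119417704, minus strand), the receptor linked to PPARα, had 625 to 750.1 CPM and 614.5 to 692 CPM. Its mean was 705 ± 38.4 against 652 ± 25.2 CPM, with a log2 change of -0.11 (SE 0.06, adjusted p 0.487) and 8 of 9 pairs lower. With the block the adjusted p was 0.0611 for Adipor1 and 0.0339 for Adipor2, both at less than the fold limit. By the adjusted p alone, the block put 6 of 7 members past 0.05, all lower, against 12.2% of all genes.

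**Figure D3:**
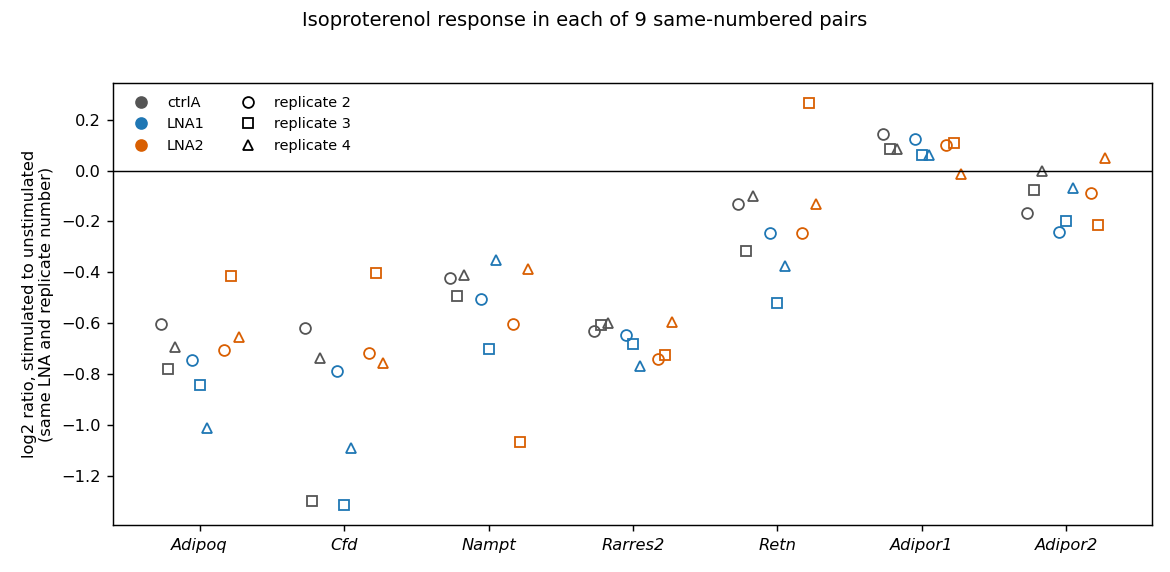
Log2 ratio of stimulated to unstimulated CPM in the 9 pairs of libraries with the same LNA (colour) and replicate number (symbol), with a line at 0. All 9 ratios were under 0 for Adipoq, Cfd, Nampt and Rarres2, 8 of 9 for Retn and Adipor2, and 8 of 9 were over 0 for Adipor1.

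The calls differed with the replicate numbers in the fit, here without the block. Without the 6 replicate 2 libraries, Adipoq, Cfd, Nampt and Rarres2 were called lower (adjusted p 0.000752, 0.000327, 0.00226 and 0.000801), against 2.03% of all genes. Without the replicate 3 libraries no member was called (adjusted p 0.322 for Adipoq and 0.486 for Cfd), nor without the replicate 4 libraries (adjusted p 0.116 and 0.198). In these fits 0.161% and 0.167% of all genes were called lower. Without the replicate 3 or the replicate 4 libraries the log2 fold changes of Adipoq and Cfd stayed between -0.82 and -0.68. Without the replicate 2 libraries they were -0.74 and -0.95.

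Within each LNA, where 3 libraries faced 3, no member was called by edgeR, while 0.0803% of all genes were called lower in ctrlA, 0.194% in LNA1 and 0.1% in LNA2. Fits on the groups compared alone called no member and 0%, 0% and 0% of all genes lower. At an unadjusted p under 0.05 there were 2, 2 and 1 members of 7, as were 812, 1037 and 896 of the 14949 genes. DESeq2 called 0, 1 and 0 members lower, against 0.308%, 0.502% and 0.355% of all genes. Without the replicate 2 libraries, 1 member was called lower in ctrlA, 3 in LNA1 and 0 in LNA2, against 0.528%, 0.85% and 0.528% of all genes. The log2 fold changes in ctrlA, LNA1 and LNA2 were -0.69, -0.85 and -0.59 for Adipoq and -0.85, -1.02 and -0.62 for Cfd. They were -0.62, -0.70 and -0.70 for Rarres2 and -0.44, -0.51 and -0.66 for Nampt. With the replicate block, Adipoq, Cfd and Rarres2 were called in each LNA and Nampt in LNA1 and LNA2, where 1.66%, 2.14% and 1.7% of all genes were called lower. The adjusted p of Nampt in ctrlA was 0.00988, with a log2 change of -0.44 that is under the limit. Whether the response differed between LNAs was tested as an interaction. No member was called for LNA1 or LNA2, and 0% and 0% of all genes were, with the same shares of 0% and 0% under the block. DESeq2 called 0 members for either interaction, against 0% and 0.0134% of all genes. The smallest adjusted p of a member was 1 for both interactions, and with the block 1 and 0.81. At an unadjusted p under 0.05, 0 of 7 members stood in either interaction, with and without the block. Of all genes, 105 and 116 stood there without the block and 393 and 807 with it.

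The LNAs were compared over stimulated and unstimulated cells alike, 6 libraries against 6, so that cells given an LNA against Gm15551 were set beside cells given ctrlA. Whether Gm15551 itself was lower was not tested. LNA1 and LNA2 were compared with the same ctrlA libraries. No member was called with LNA1 by edgeR or DESeq2, against 0.442% of all genes by edgeR and 0.89% by DESeq2. An unadjusted p under 0.05 was found for 0 of 7 members and 899 of 14949 genes. Rarres2 stood at 89.3 ± 31.3 CPM with LNA1 and 72.6 ± 28.9 CPM with ctrlA, higher in 6 of 6 pairs, with a log2 change of 0.29 (SE 0.24, adjusted p 1). The block gave 0.31 (SE 0.05, adjusted p 0.00164), which is under the fold limit. It was the only member of 7 past an adjusted p of 0.05 there, against 7.8% of all genes, and no member was called with the fold limit, against 2.43%. The other members had log2 fold changes between -0.12 and 0.07 with LNA1. These were -0.12 for Adipoq, 0.01 for Cfd, -0.04 for Nampt, 0.07 for Retn, -0.05 for Adipor1 and -0.05 for Adipor2, and those of Cfd, Nampt and Retn changed sign when single libraries were left out.

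With LNA2 no member was called by edgeR or DESeq2 either, against 1.42% of all genes by edgeR and 2.26% by DESeq2. At an unadjusted p under 0.05 stood 0 of 7 members and 1587 of all genes. Retn was higher in 6 of 6 pairs, at 90.7 ± 48.3 against 64.6 ± 40.7 CPM, with a log2 change of 0.49 (SE 0.48, adjusted p 0.898). The block called it, at 0.55 (SE 0.07, adjusted p 9.02e-05), as 1 of 7 members against 5.53% of all genes. Cfd was likewise higher in 6 of 6 pairs, at 182 ± 59.7 against 138 ± 60 CPM, with 0.42 (SE 0.23, adjusted p 0.599) and 0.45 (SE 0.09, adjusted p 0.00235) with the block. Nampt was lower in 6 of 6 pairs, at 323 ± 123 against 401 ± 117 CPM, with -0.33 (SE 0.23, adjusted p 0.756) and -0.35 (SE 0.07, adjusted p 0.00273). These 3 of 7 members had an adjusted p under 0.05 with the block, against 20.6% of all genes. The log2 fold changes of the others were 0.09 for Adipoq, -0.08 for Rarres2, -0.06 for Adipor1 and -0.08 for Adipor2, of which Rarres2 changed sign when single libraries were left out. Without the replicate 2 libraries, Retn (0.67, adjusted p 0.002) and Cfd (0.57, adjusted p 0.0253) were called, against 4.9% of all genes. Without the replicate 3 or the replicate 4 libraries no member was called, and neither was any other of the 14949 genes (0% and 0%). Over all alternatives the log2 fold change of Retn ranged from 0.16 to 0.88 with LNA2, the lowest without unstimulated LNA2 replicate 2 and the highest without stimulated ctrlA replicate 2.

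LNA1 and LNA2 were compared directly as well. No member was called without or with the block, against 0.923% and 4.11% of all genes, and DESeq2 called 0, against 1.55%. Without the block, 0 of 7 members and 1375 of all genes had an unadjusted p under 0.05. The log2 fold changes of LNA2 against LNA1 were 0.42 for Retn, 0.41 for Cfd, 0.21 for Adipoq, -0.29 for Nampt, -0.37 for Rarres2, -0.01 for Adipor1 and -0.03 for Adipor2, and that of Adipor1 changed sign under several alternatives. With the block the adjusted p was 0.00043 for Retn, 0.00521 for Cfd, 0.0196 for Adipoq, 0.011 for Nampt and 0.000183 for Rarres2, each with a fold change under the limit. That is 5 of 7 members by the adjusted p alone, against 15.4% of all genes. Without the replicate 2 libraries Retn was called (0.58, adjusted p 0.0064), against 2.92% of all genes, and over all alternatives its log2 fold change ranged from 0.11 to 0.84. Retn and Cfd were thus higher, and Nampt lower, with LNA2 than with either ctrlA or LNA1 in 6 of 6 pairs, and only Retn with LNA2 reached a call under the block. Both comparisons use the same LNA2 libraries. The summed macrophage and leukocyte markers moved with LNA2 as well, at 14.1 to 28.5 CPM in unstimulated LNA2 cells against 8.21 to 12.7 CPM with ctrlA, and at 26.1 to 44.5 against 12.1 to 24.8 CPM in stimulated cells. With LNA1 they were 11.5 to 15.2 and 19.3 to 30.1 CPM. Most of each sum was Cd68, with means of 9.55, 12.8 and 18.7 CPM in unstimulated ctrlA, LNA1 and LNA2 cells. In stimulated cells its means were 18.9, 24.5 and 32.4 CPM. Csf1r was higher with LNA2 than with ctrlA too, at 1.08 against 0.38 CPM and, stimulated, at 1.39 against 0.38 CPM. Ptprc and Adgre1 were at or under the floor with every LNA. The summed brown adipocyte markers were lower with both LNAs in stimulated cells, at 497 to 549 CPM in ctrlA against 355.5 to 448 in LNA1 and 356 to 424 CPM in LNA2, and their largest contributor Elovl3 had means of 392, 290.1 and 293 CPM. Without stimulation these sums overlapped, at 340 to 430.1, 256 to 355 and 264 to 381 CPM. In stimulated cells the means of Ppargc1a, Cidea, Ucp1, Cox7a1 and Cox8b were also lower with both LNAs. Prdm16 was not lower, at 5.77, 5.85 and 5.96 CPM with ctrlA, LNA1 and LNA2. Dio2 was not lower either, near the floor at 0, 0.13 and 0.0893 CPM. The preadipocyte markers went different ways, given here as means of ctrlA, LNA1 and LNA2. Pdgfra had 7.74, 14.1 and 11.6 CPM in unstimulated and 7.05, 13.3 and 12.65 CPM in stimulated cells. Ly6a had 9.44, 10.2 and 16.4 CPM and then 30.8, 35.0 and 39.7 CPM. Cd34 was lower with both LNAs, at 0.9545, 0.616 and 0.708 CPM and at 0.837, 0.788 and 0.437 CPM. Dlk1 was near the floor, at 0.338, 0.273 and 0.426 CPM and at 0.494, 0.198 and 0.322 CPM. The part of these markers in the results was not tested.

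**Figure D4:**
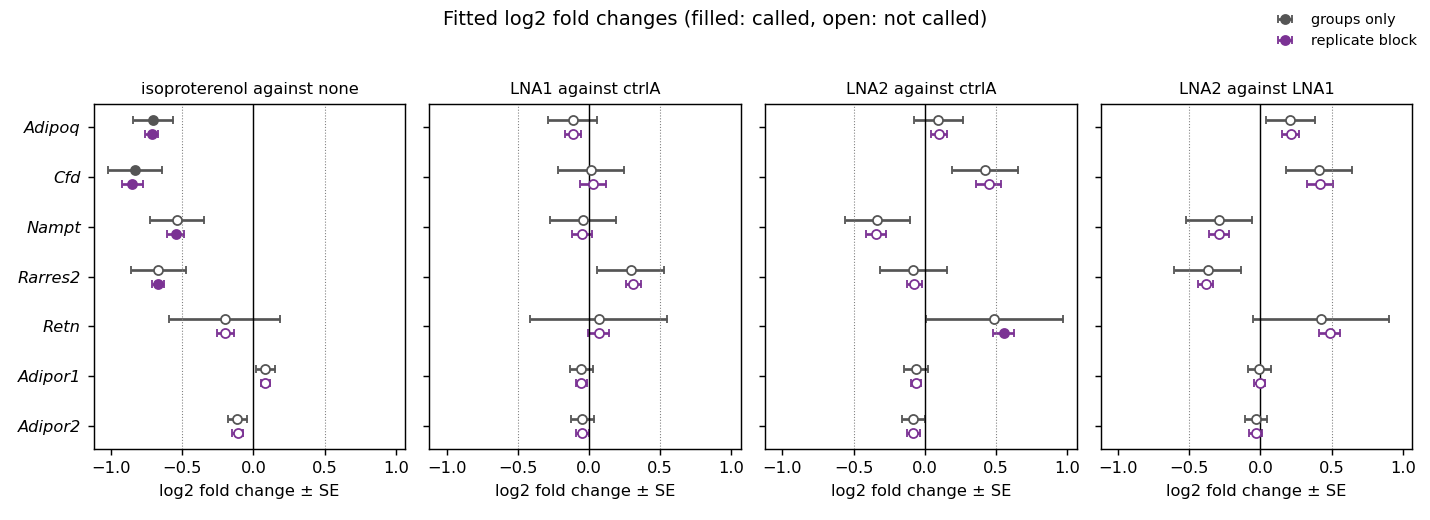
Log2 fold change ± SE of the 7 tested genes in 4 comparisons, from the model with groups only (grey) and with the replicate number as a block (purple), with dotted lines at the fold limit of 0.5. Called values are filled. The block narrowed the errors, from 0.39 to 0.06 for Retn with isoproterenol, and left the values nearly in place.

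Rbp4 (ENSMUSG00000024990.13, chr19:38116629-38125281, minus strand), the plasma carrier of retinol, had 0 to 8 counts per library. The 9 unstimulated libraries held 20 counts and the 9 stimulated ones 38, which gave 0.167 ± 0.169 and 0.356 ± 0.2 CPM. The groups overlapped, and 9 of 18 libraries were over the floor of 3 counts. Exchanging the stimulation labels within LNA in an exact permutation test (two-sided) gave p = 0.0548 (adjusted 0.438 over the 8 comparisons made for Rbp4 and Lep). Rbp4 was higher in 8 of 9 pairs of the same LNA and replicate number, and an exact sign-flip permutation test within these pairs gave p = 0.00781 (two-sided, adjusted 0.0625 over the same 8). The 3 comparisons of LNAs gave exact permutation p of 0.745, 0.34 and 0.59 for LNA1, LNA2 and LNA2 against LNA1. Lep (ENSMUSG00000059201.12, chr6:29060220-29073877, plus strand) was at 0 in 15 of 18 libraries and had at most 2 counts. Leptin transcripts were therefore not detectable at this depth, and a difference between groups could not be seen.

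Genes around these adipokines were counted from 8 lists written by function, with 53 genes tested. With isoproterenol 3 of them rose and 2 fell, against 2.02% of all genes called higher and 1.18% called lower. With isoproterenol, 0 of 3 tested genes for adipokine receptors and binding partners, 0 of 6 for the alternative complement pathway, 0 of 8 adipocyte transcription factors and 0 of 3 paralogues of adiponectin and resistin were called. Of 9 genes for adiponectin assembly and signalling, 1 fell and 0 rose. This was Ero1a, an oxidoreductase of the endoplasmic reticulum that helps to form disulphide bonds, at 1508 ± 180 against 952 ± 221 CPM, with a log2 change of -0.68 (SE 0.12, adjusted p 0.00398). Among 11 genes of NAD synthesis and use, 2 rose and 0 fell. Nmnat2, which joins the mononucleotide made by NAMPT to ATP, went from 1.86 ± 0.767 to 5.83 ± 2.39 CPM (log2 fold change 1.69, SE 0.22, adjusted p 0.00024). Nnmt, which methylates nicotinamide, went from 29.6 ± 6.41 to 56.8 ± 8.84 CPM (0.94, SE 0.13, adjusted p 0.000321). Of 6 genes for retinol handling, 1 fell. Aldh1a1, which oxidises retinaldehyde, went from 36.4 ± 13.3 to 16.6 ± 7.79 CPM (-1.13, SE 0.29, adjusted p 0.0366). That call was lost without any of the unstimulated replicate 2 or 3 libraries and without any of the stimulated replicate 3 or 4 libraries (adjusted p up to 0.0809). Of 7 other adipokines, 1 rose, namely Metrnl, encoding the secreted meteorin-like protein, from 12.1 ± 1.93 to 20.2 ± 3.18 CPM (0.74, SE 0.12, adjusted p 0.00115). Each of these 5 genes moved in its direction in 9 of 9 pairs. All 5 calls were lost without the replicate 3 libraries, and those of Ero1a and Aldh1a1 also without the replicate 4 libraries. With the replicate block 7 of the 53 genes were called higher and 4 lower, against 3.87% and 3.13% of all genes. The 6 genes added were Cebpb (0.62, SE 0.08, adjusted p 1.88e-05) and Cebpd (0.56, SE 0.08, adjusted p 5.05e-05), transcription factors of early adipogenesis, Nmnat3 (0.53, adjusted p 0.00377), Naprt (0.61, adjusted p 0.0217), complement C3 (-0.57, adjusted p 1.42e-05) and Sfrp5 (-1.34, adjusted p 0.00823). Cebpb, Cebpd and Nmnat3 were higher in 9 of 9 pairs and Naprt in 7, while C3 and Sfrp5 were lower in 8. Without the block their adjusted p was between 0.053, for Nmnat3, and 0.519, for C3.

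With the LNAs, 2 of these 53 genes were called, 1 with LNA1, 1 with LNA2 and 1 between them, against 0.442%, 1.42% and 0.923% of all genes. Naprt, which makes NAD from nicotinic acid, rose with LNA1 from 1.34 ± 0.576 to 3.63 ± 1.32 CPM (log2 fold change 1.47, SE 0.27, adjusted p 0.0243, 6 of 6 pairs). It was lower with LNA2 than with LNA1 (-1.28, SE 0.27, adjusted p 0.0349), at 1.48 ± 0.486 CPM. Fits on the groups compared alone lost both calls (adjusted p 0.0808 and 0.089). The call with LNA1 was lost without any unstimulated ctrlA library, unstimulated LNA1 replicate 4, stimulated ctrlA replicate 2 or 3 or stimulated LNA1 replicate 3 or 4 (adjusted p up to 0.0891). The call between the LNAs was lost without any of 10 libraries (adjusted p up to 0.109). These were unstimulated ctrlA 4, LNA1 3 and 4 and LNA2 2 and 3, and stimulated ctrlA 2, LNA1 3 and 4 and LNA2 2 and 4. Among the paralogues C1qtnf6, a relative of adiponectin, rose with LNA2 from 11 ± 0.828 to 20.9 ± 4.02 CPM (0.92, SE 0.13, adjusted p 0.00182, 6 of 6 pairs). Its call was lost without the replicate 3 and without the replicate 4 libraries (adjusted p 0.206 and 0.422). Without the block no other gene of the 8 lists was called with LNA1, with LNA2 or between them. With it the counts were 1, 4 and 4 of 53, against 2.43%, 5.53% and 4.11% of all genes. Those added with LNA2 were Nmnat2 (1.01, adjusted p 0.000747), C1qtnf1 (0.62, adjusted p 0.00665) and Rbp7, a retinol binding protein (-0.95, adjusted p 5.99e-05). Between LNA2 and LNA1, those added included Rbp7 (-0.61, adjusted p 0.00352) and C1qtnf6 (0.52, adjusted p 0.00188). Each of the genes named had its direction in 6 of 6 pairs, and without the block their adjusted p was between 0.0762, for Nmnat2, and 0.844, for Rbp7 between the LNAs.

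Promoters were read because 4 members were called lower with stimulation under the block, and cyclic AMP acts in part through a short response element. The 250 bases before the RefSeq start site (assembly GRCm38.p6, plus strand) are given for Adipoq at chr16:23146286-23146535, Cfd at chr10:79890603-79890852 and Nampt at chr12:32820085-32820334. Capitals mark a match to TGACG, the core of the response element.
Adipoq: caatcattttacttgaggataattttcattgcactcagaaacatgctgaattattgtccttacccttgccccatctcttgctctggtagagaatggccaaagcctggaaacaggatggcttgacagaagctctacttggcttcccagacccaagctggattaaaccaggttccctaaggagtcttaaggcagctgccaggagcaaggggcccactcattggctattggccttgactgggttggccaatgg
Cfd: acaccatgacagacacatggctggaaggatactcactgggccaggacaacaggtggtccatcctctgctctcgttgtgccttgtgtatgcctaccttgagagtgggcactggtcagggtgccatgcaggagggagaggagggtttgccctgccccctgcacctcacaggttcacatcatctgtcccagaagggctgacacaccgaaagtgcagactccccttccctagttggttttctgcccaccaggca
Nampt: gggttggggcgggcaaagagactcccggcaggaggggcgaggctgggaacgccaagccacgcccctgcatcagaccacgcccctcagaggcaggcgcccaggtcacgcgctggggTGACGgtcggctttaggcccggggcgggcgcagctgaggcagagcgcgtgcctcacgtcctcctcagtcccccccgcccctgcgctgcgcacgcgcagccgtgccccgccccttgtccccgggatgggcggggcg
The windows searched ran from 250 bases before to 50 after the start site on both strands, with 10 windows for 8 of the 9 genes, all but Rarres2. Nampt had TGACG at -135 to -131, Adipor1 at -234 to -230 and -217 to -213, Rbp4 at -172 to -168 and Adipor2 at -28 to -24 on the opposite strand. TGACG was found in 20.8% of 32851 promoters, and the full element TGACGTCA, which contains it, in 1.79% and in none of the 8 genes with a window. A C/EBP motif, TTGCNNAA, lay at -55 to -48 in Lep and at -128 to -121 in Rbp4, against 10.8% of promoters. The TATA box TATAAA lay at -28 to -23 in Rbp4, against 13.6%. The direct repeat bound by PPARs, 2 copies of AGGTCA in the same direction with any 1 base between them, was in 0.0396% of promoters and in none of these 8 genes. None of these letters occurred in the windows of Adipoq, Cfd and Retn, and a match or its absence describes the window only.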

How the data were processed

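Polyadenylated RNA of 18 libraries was sequenced as paired-end reads. The submitters' processing notes name bcl2fastq, cutadapt, Salmon and DESeq2 and build GRCm38, without versions, and the authors used Gencode M22. The deposited values are expected counts per gene, given as whole numbers (0 others). How transcripts were summed to genes is not given in the sources used here. All columns were mapped to libraries by title. The 9 members and all gene and marker lists were chosen with earlier results of these data known. Named genes were all members, the called genes of each list and the 3 genes most alike in pattern to each tested member. Coordinates are from Gencode M21.

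Counts were fitted with edgeR 4.0.16 in R 4.3.3 after filterByExpr (minimum count 10, minimum total 15) and TMM, with 1 term per group over all 18 libraries (glmQLFit, glmQLFTest). Adjustment was by Benjamini-Hochberg over 14949 genes. A call needed an adjusted p below 0.05 and an absolute log2 fold change above 0.5, and 0.05 alone for interactions. SEs were derived from the F statistic. Floors cover counting error only. Same-numbered libraries deviated together from their group means (r 0.649 to 0.722, 0.252 to 0.505 and 0.24 to 0.47 for replicates 2, 3 and 4, 15 pairs each). Pairs of other numbers had r of -0.596 to 0.404 (median -0.436, 90 pairs), with 29 over 0.1. These values overlap those of replicates 3 and 4. Deviations from a group mean are also tied to each other, so for replicates 3 and 4 the r values cannot settle the pairing. The numbers were taken to pair the libraries from these data, as the labels name no shared day or culture. Pairs of libraries within groups differed by chi-square per degree of freedom of 4.67 to 202, so each counted once. Alternatives were RLE, DESeq2 1.42.0, no filter, the replicate block, own groups only, no fold limit and leaving out each library. The fits that left out all libraries of a replicate number had no block. These fits, and a sign-flip test within pairs for Rbp4 and Lep, were added after seeing the data. List genes called with the block alone were named after their values were seen, and 1 of them is not reported here. The fit was tested on simulated counts. Figures used matplotlib 3.10.9.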

Additional observations from a re-analysis of the deposited data

How the results depend on the processing

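Percentages in brackets here are shares of all genes in the same fit, called lower with isoproterenol and in either direction between LNAs. The number of members called with isoproterenol was 2 (1.18%). It was 3 with DESeq2 (1.61%), without a filter (0.457%) and without stimulated replicate 2 of ctrlA, LNA1 or LNA2 (1.06%, 1.08% and 1.13%). It was 4 with the replicate block (3.13%) and without the replicate 2 libraries (2.03%). Without the replicate 3 or the replicate 4 libraries it was 0 (0.161% and 0.167%). With LNA2 it was 0 (1.42%), and 1 with the replicate block (5.53%) and 2 without the replicate 2 libraries (4.9%). Between LNA2 and LNA1 it was 0 (0.923%), and 1 without the replicate 2 libraries (2.92%). Within ctrlA, LNA1 and LNA2 it was 0 (0.0803%, 0.194% and 0.1%). In ctrlA this became 3 with the replicate block (1.66%) and 1 without the replicate 2 libraries (0.528%). In LNA1 it became 1 with DESeq2 (0.502%), 4 with the replicate block (2.14%) and 3 without the replicate 2 libraries (0.85%). In LNA2 it became 4 with the replicate block (1.7%). The replicate block changed no other count of members. Leaving out whole replicate numbers was chosen after seeing the data, and the cause of these shifts was not tested.

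Small values changed sign. Cfd with LNA1 was 0.01, and -0.0212 without a filter, -0.0387 without the replicate 4 libraries and -0.17 to 0.21 when single libraries were left out. Adipor1 between LNA2 and LNA1 was -0.01, and 0.0112 without a filter, 0.0149 without the replicate 4 libraries and -0.0349 to 0.039 when single libraries were left out. Over the same leave-one-out fits, Retn ranged from -0.46 to 0.056 with isoproterenol and from -0.35 to 0.45 with LNA1, Nampt from -0.19 to 0.0799 with LNA1 and Rarres2 from -0.22 to 0.0946 with LNA2. No single library ended the call of Adipoq or Cfd with isoproterenol, whose adjusted p ranged up to 0.322 and 0.486 over 25 alternatives. The averaged isoproterenol comparison uses all 18 libraries and has no fit on its own groups only.

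Over all genes the replicate block called 1046 with isoproterenol against 479, 364 against 66 with LNA1, 826 against 213 with LNA2 and 615 against 138 between the LNAs. DESeq2 called 133 with LNA1, 338 with LNA2 and 232 between them. Own groups alone gave 120 with LNA2 and 70 between the LNAs. Leaving out single libraries gave 383 to 476 with isoproterenol, 34 to 76 with LNA1 (34 without unstimulated or stimulated LNA1 replicate 4), 112 to 258 with LNA2 (112 without unstimulated LNA2 replicate 4) and 83 to 145 between the LNAs (83 without unstimulated LNA2 replicate 4 or stimulated LNA1 replicate 4). Within the LNAs, the genes called lower were 12, 29 and 15 in ctrlA, LNA1 and LNA2, and 5 to 13, 9 to 30 and 5 to 16 when single libraries were left out. The lowest of these were without stimulated ctrlA replicate 2 or 3, without stimulated LNA1 replicate 4 and without unstimulated LNA2 replicate 3. Own groups alone gave 0 in each. Without the replicate 2, 3 or 4 libraries the counts were 725, 91 and 116 with isoproterenol, 180, 0 and 0 with LNA1, 733, 0 and 0 with LNA2 and 437, 0 and 0 between the LNAs. Without the replicate 3 libraries the calls of Ero1a, Nmnat2, Nnmt, Metrnl, C1qtnf6, Aldh1a1 and Naprt were lost, and without the replicate 4 libraries those of Ero1a, C1qtnf6, Aldh1a1 and Naprt. Depth limits Lep and Rbp4, which stood near the floor of 3 counts.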

Other observations

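The members also varied together over the libraries. Pearson's r of log2 CPM is given as a description over 18 libraries, which share stimulation, LNA and replicate number, and again after the mean of each replicate number was removed. Adipoq and Cfd had r of 0.955 and 0.943, and Nampt and Rarres2 0.912 and 0.847. Retn and Nampt had 0.591 as measured and -0.169 after removal. Adipor1 ran against every other tested member, with r between -0.841 and -0.455 as measured and between -0.697 and -0.449 after removal.

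The tested genes most alike to Adipoq were Plaat3 (0.967), Cfd (0.955) and Mc2r (0.954) as measured, and 1600014C10Rik (0.985), Mvd (0.973) and Fabp5 (0.967) after removal. For Cfd they were Adipoq (0.955), Mc2r (0.941) and Anxa8 (0.938), and Anxa8 (0.951), Tmem120b (0.945) and Adipoq (0.943). Those of Nampt were Cd36 (0.989), Ell2 (0.981) and Bnip3 (0.975), and Ankef1 (0.985), Akap7 (0.984) and Cd36 (0.982). Cd36 encodes a fatty acid transporter and was the gene that stayed with Nampt on both scales. Rarres2 was followed by 2610528A11Rik (0.926), Clca3a1 (0.924) and Prss23 (0.921), and by Abcd2 (0.959), Chn1 (0.946) and Fam83a (0.946). Retn was followed by Arf2 (0.97), Ppt1 (0.964) and Psma5 (0.962), and by Slc25a44 (0.948), Ankrd10 (0.944) and Per2 (0.94), so that no gene was shared between its scales. For Adipor1 the genes were Vapb (0.947), Nr2f6 (0.934) and Macroh2a1 (0.933), and Macroh2a1 (0.897), Stoml2 (0.896) and Igfbp4 (0.896). For Adipor2 they were Zmynd11 (0.904), 4931406C07Rik (0.891) and Zkscan3 (0.873), and Ralgapa2 (0.922), Fam214a (0.919) and Jade1 (0.91).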
